A study of Mus musculus with 9 samples.

Results

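The suprachiasmatic nucleus (SCN) genes described here are the peptide ligands Vip, Nms, Prok2 and Grp, the receptors Vipr2 and Prokr2, the signaling regulator Rgs16 and the transcription factors Six6 and Lhx1. These 9 genes, of 35975 genes with quantified transcripts, were selected by symbol, with their levels and differences in these same libraries already known. Their values below are therefore a description and carry no test. The mediobasal hypothalamus (MBH) was sequenced in wild-type C57Bl/6 male offspring at P21, the age of weaning, with 4 libraries from the offspring of dams that drank plain water (CTRL) and 5 from the offspring of dams whose water held 1% carboxymethyl cellulose (CMC) and 1% polysorbate 80 (P80), a pair of dietary emulsifiers (Emul). Dams of the Emul group had the emulsifiers from before mating until weaning, so that pups could also reach them directly, and both groups otherwise ate standard chow. Each library stands for 1 litter according to the methods, and the hour of tissue collection is not given in the sources used here. Transcript counts were estimated by the authors with kallisto and summed per gene here, and totals ran from 28.2 M in CTRL 3 to 46.1 M in Emul 4.

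The SCN is the master circadian clock of mammals, a paired nucleus in the anterior hypothalamus above the optic chiasm that receives light input from the retina. Its ventral core holds neurons that release vasoactive intestinal peptide (VIP) or gastrin-releasing peptide (GRP), and VIP acting through its receptor VPAC2, the product of Vipr2, keeps the cells of the nucleus in step with each other. Neuromedin S and prokineticin 2 are further SCN peptides, the latter an output signal read by the receptor Prokr2, while RGS16 limits G protein signaling and SIX6 and LHX1 are transcription factors needed to form the nucleus or to maintain its peptides. The MBH lies behind the SCN, so these genes could enter the libraries from the front edge of a dissection and, for some of them, from other hypothalamic neurons.

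Short promoter stretches are shown because transcription of Vip is known to respond to cyclic AMP through a cyclic AMP response element (CRE), and Prok2 is known as a clock-controlled gene with E-boxes. RefSeq promoters on GRCm38.p6 were found for 8 of the 9 members, and the 250 bases before each start site were searched on both strands. The whole CRE, TGACGTCA, was in 0 of these 8 and in 1.55% of 32851 promoters, while the CRE without its last base, TGACGTC, was in 2 of the 8 and in 2.78% of all. The shorter letters TGACG, which both longer motifs contain, were found in the same 2 members and in 17.8% of all promoters. The E-box CACGTG was in 1 of the 8 and in 6.02% of all. The stretches below read 5′ to 3′ along the gene, with the motif in capitals; they lie at chr10:5639099-5639185 on the + strand for Vip, at chr11:84525538-84525624 on the - strand for Lhx1 and at chr6:99726482-99726567 on the - strand for Prok2.
Vip: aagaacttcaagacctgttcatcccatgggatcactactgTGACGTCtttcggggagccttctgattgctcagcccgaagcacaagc
Lhx1: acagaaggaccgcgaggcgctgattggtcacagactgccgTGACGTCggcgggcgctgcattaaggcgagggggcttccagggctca
Prok2: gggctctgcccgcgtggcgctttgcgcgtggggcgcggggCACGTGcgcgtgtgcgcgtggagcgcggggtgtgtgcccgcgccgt
The capitals start 79 bases before the start site in Vip, 50 before it in Lhx1 and 135 before it in Prok2. Vip and Lhx1 thus share the 7 letters, and whether these letters bear on their levels was not tested. These matches are letters in a window, and binding was not measured.

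Vip was the member with the widest spread. The gene, ENSMUSG00000019772.5 at chr10:5639218-5647617 on the + strand of mm10, had estimated counts of 405, 219, 271 and 239 in CTRL 1 to 4 and of 306, 53.2, 40.6, 412 and 30.3 in Emul 1 to 5. On the log2 CPM scale (CPM is taken over all counts on genes, with a prior count of 2), the values were 3.41, 2.42, 3.25 and 2.48 for CTRL 1 to 4, followed by Emul 1 to 5 with 2.96, 0.41, 0.17, 3.19 and -0.17. Emul 1 and Emul 4 were inside the CTRL range, whereas Emul 2, Emul 3 and Emul 5 lay below the lowest CTRL library by at least 2.01 on the log2 scale. CTRL averaged 2.89 ± 0.51 (SD, n = 4) and Emul 1.31 ± 1.62 (SD, n = 5), with a limma-voom log2 fold change (Emul over CTRL) of -1.50 ± 0.57 (SE). The distance between the highest and lowest library was 3.58 on the log2 scale, against a median of 0.29 over the 15340 genes tested, and 0.352% of those genes spanned as much. The low level was thus found in 3 of 5 litters rather than in the whole Emul group.

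**Figure D1:**
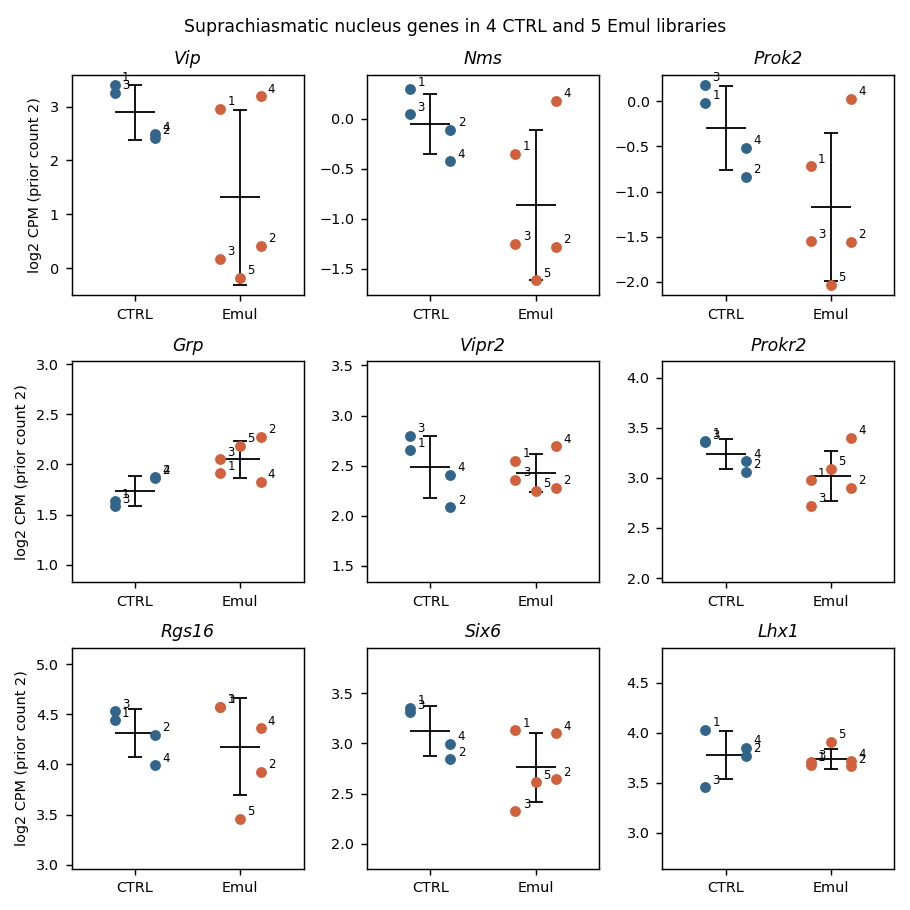
Log2 CPM (prior count 2) of the 9 SCN genes in each of 4 CTRL and 5 Emul libraries, with 1 point per library, its replicate number beside it, and bars for the mean ± SD. The vertical scale differs between panels; Emul 2, 3 and 5 are the lowest libraries for Vip, Nms, Prok2 and Six6 and the highest for Grp.

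The transcripts of Vip did not drop evenly in the low libraries. Vip has 2 annotated transcripts, the protein-coding Vip-201 with 90.9% of all its counts and the retained-intron Vip-202 with the remainder. Vip-201 had 380, 204, 255 and 220 counts in CTRL 1 to 4 and 274, 39.9, 22.9, 378 and 22.5 in Emul 1 to 5. Vip-202 had 24.9, 14.6, 16.3 and 19.4 counts in CTRL and 31.7, 13.3, 17.7, 34.4 and 7.77 in Emul. The share on the coding transcript was 91.9% to 94.0% in CTRL, 89.6% in Emul 1 and 91.6% in Emul 4, but 75.0% in Emul 2, 56.4% in Emul 3 and 74.3% in Emul 5. In Emul 3, the retained-intron counts were inside the CTRL range while the coding counts were the second lowest of all libraries. These are estimates of how reads divide between overlapping transcripts, and with so few counts the shares of Emul 2, 3 and 5 are imprecise.

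**Figure D2:**
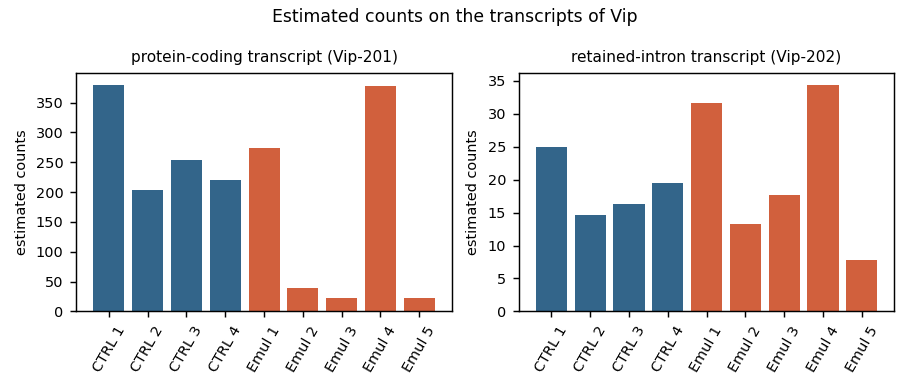
Kallisto estimated counts (vertical axes, different scales, both from 0) on the coding and the retained-intron transcript of Vip in each library, CTRL in blue and Emul in orange. The coding transcript stood at 39.9, 22.9 and 22.5 counts in Emul 2, 3 and 5 and at 204 or more in every other library.

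Nms, which encodes neuromedin S, had the same 3 highest and the same 3 lowest libraries as Vip, at low counts. Its estimated counts (ENSMUSG00000067604.8, chr1:38939149-38950276) were 45, 36, 28 and 30 in CTRL 1 to 4 and 29, 15, 14, 49 and 10 in Emul 1 to 5. On the log2 CPM scale these were 0.29, -0.11, 0.04 and -0.43 in CTRL and -0.35, -1.28, -1.25, 0.18 and -1.61 in Emul. Emul 2, 3 and 5 again lay below every CTRL library, and Emul 1 and Emul 4 lay within the CTRL range. CTRL averaged -0.05 ± 0.30 (SD, n = 4) and Emul -0.86 ± 0.75 (SD, n = 5). Nms exceeded a CPM of 1 in 3 libraries and so did not pass the filter of 4, and without a filter its log2 fold change was -0.82 ± 0.34 (SE).

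Prok2, the gene of prokineticin 2, was the least abundant member. Estimated counts of ENSMUSG00000030069.15 (chr6:99711299-99726392) were 36, 21, 31 and 28 in CTRL 1 to 4 and 22, 12, 11, 44 and 7 in Emul 1 to 5. Log2 CPM was -0.02, -0.84, 0.18 and -0.52 in CTRL and -0.72, -1.56, -1.55, 0.03 and -2.03 in Emul. The same 3 Emul libraries were below every CTRL library, and the other two Emul libraries were inside the CTRL range. Prok2 passed a CPM of 1 in 1 library, was therefore not tested, and without a filter its log2 fold change came to -0.87 ± 0.40 (SE). The transcript assignment was unstable, since Prok2-203 took 100% of the counts in CTRL 2, CTRL 3 and Emul 1 but 0% in Emul 2 and Emul 3, where Prok2-202 took 100% and 61.1%.

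Grp, the gene of gastrin-releasing peptide, ran the other way. Its estimated counts (ENSMUSG00000024517.17, on chromosome 18) ran from 84 in CTRL 3 to 199 in Emul 2. Log2 CPM was 1.63, 1.86, 1.58 and 1.87 in CTRL 1 to 4 and 1.91, 2.28, 2.05, 1.83 and 2.18 in Emul 1 to 5. Emul 2, 3 and 5, the lowest libraries for Vip, were the highest for Grp, and CTRL 1, CTRL 3 and Emul 4, the highest for Vip, were the lowest for Grp. Emul 1, 2, 3 and 5 exceeded every CTRL library, by little in Emul 1, and Emul 4 did not. CTRL averaged 1.74 ± 0.15 (SD, n = 4), Emul averaged 2.05 ± 0.19 (SD, n = 5), and the log2 fold change was 0.30 ± 0.12 (SE). Among the 7 members tested, Grp was the only one higher in Emul. The highest 3 libraries were Emul 2, 3 and 5 for 2.93% of all genes tested.

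Among the receptors, Vipr2 gave a different picture depending on how its transcripts were weighed. Vipr2 (ENSMUSG00000011171.11, chr12:116077726-116146261) encodes the VIP receptor of the SCN and had log2 CPM values of 2.65, 2.08, 2.80 and 2.41 in CTRL 1 to 4 and of 2.55, 2.28, 2.36, 2.69 and 2.25 in Emul 1 to 5. Every Emul library lay within the CTRL range, the means were 2.49 ± 0.31 (SD, n = 4) and 2.43 ± 0.19 (SD, n = 5), and the log2 fold change was -0.03 ± 0.14 (SE). In TPM, which divides each transcript's counts by its length, the same libraries stood at 5.52, 4.13, 6.53 and 5.37 in CTRL and at 3.52, 2.58, 3.62, 5.71 and 2.71 in Emul, with Emul 1, 2, 3 and 5 below every CTRL library. The authors' log2 CPM table gave a log2 fold change of -0.51, length-scaled counts rebuilt from the TPM values (lengthScaledTPM) gave -0.48, and the leading transcript alone gave 0.08.

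The short transcripts of Vipr2 followed that gap in part. Vipr2-201, the full-length coding transcript with an effective length of 3199 to 3232 bases, had 155 to 217 counts in CTRL and 168 to 264 in Emul. Vipr2-205, a coding fragment of 251 to 284 bases, had 9.13, 7.11, 3.91 and 11.7 counts in CTRL 1 to 4 and 1.22, 0, 4.31, 11.7 and 0 in Emul 1 to 5. It thus had fewer counts in CTRL 3, the highest library in TPM, than in Emul 3. Vipr2-202, of 331 to 363 bases, had 3.11 counts in CTRL 2, 6.40 in CTRL 3 and almost none elsewhere. A handful of counts on so short a transcript weighs as much in TPM as many counts on the long one. A lower Vipr2 level in Emul appeared in TPM, in lengthScaledTPM and in the authors' table, and did not appear in the counts of its main transcript. Whether the fragment reads came from a separate transcript was not tested.

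Prokr2, the prokineticin 2 receptor, which is also expressed outside the SCN, was modestly lower in part of the Emul libraries. Log2 CPM (ENSMUSG00000050558.13, chr2:132337733-132385447) was 3.37, 3.06, 3.35 and 3.16 in CTRL 1 to 4 and 2.97, 2.90, 2.72, 3.40 and 3.09 in Emul 1 to 5. Emul 1, 2 and 3 lay below every CTRL library, Emul 5 lay within the CTRL range and Emul 4 above it. The log2 fold change was -0.20 ± 0.12 (SE), from means of 3.24 ± 0.15 (SD, n = 4) and 3.02 ± 0.25 (SD, n = 5). Its counts were divided over 4 coding transcripts with at least 10% each, and the share of Prokr2-201 ran from 27.3% to 79.6% in CTRL and from close to 0% in Emul 3 to 68.7% in Emul 4. On that transcript alone the log2 fold change was -1.53, a value that rests on Emul 3. Estimated counts of Prokr2-201 were 93.35 to 231.4 in CTRL and almost none in Emul 3. They were 98.13, 138, 327.5 and 209.7 in Emul 1, 2, 4 and 5.

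Rgs16, a regulator of G protein signaling in the SCN and elsewhere, varied between libraries without following the groups. Log2 CPM (ENSMUSG00000026475.7, chr1:153740349-153745468) was 4.44, 4.29, 4.53 and 3.99 in CTRL 1 to 4 and 4.58, 3.93, 4.58, 4.36 and 3.46 in Emul 1 to 5. Emul 1 and Emul 3 lay above every CTRL library and Emul 2 and Emul 5 below every CTRL library. The log2 fold change was -0.10 ± 0.20 (SE), and it turned to 0.06 when Emul 5 was left out. Emul 3, among the lowest libraries for Vip, was among the highest for Rgs16.

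Six6, a homeobox gene needed for formation of the SCN, had the same lowest libraries as Vip with a smaller spread. Log2 CPM (ENSMUSG00000021099.6, chr12:72939892-72944899) was 3.36, 2.84, 3.31 and 2.99 in CTRL 1 to 4 and 3.13, 2.64, 2.32, 3.10 and 2.61 in Emul 1 to 5. Emul 2, 3 and 5 were below every CTRL library and Emul 1 and 4 were within the CTRL range. The means were 3.13 ± 0.25 (SD, n = 4) and 2.76 ± 0.35 (SD, n = 5), with a log2 fold change of -0.33 ± 0.16 (SE). Six6 has 1 annotated transcript, so its value does not hang on how reads were divided, and it ran from -0.43 without CTRL 2 to -0.23 without Emul 3.

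Lhx1, a LIM-homeobox gene that maintains SCN peptide expression, showed little difference in counts and a larger one per length. Log2 CPM (ENSMUSG00000018698.15, chr11:84518284-84525535) was 4.03, 3.77, 3.46 and 3.85 in CTRL 1 to 4 and 3.68, 3.67, 3.70, 3.71 and 3.91 in Emul 1 to 5. All Emul libraries lay within the CTRL range, and the log2 fold change was -0.07 ± 0.09 (SE). In TPM the libraries stood at 10.3, 9.37, 11.4 and 8.69 in CTRL and at 7.20, 7.27, 7.99, 8.01 and 8.58 in Emul, so that every CTRL library was above every Emul library, the only such case in TPM among the 9 members, while 13.4% of all genes tested showed no overlap in TPM, in either direction. CTRL 3 was the lowest library in log2 CPM and the highest in TPM. It had 271 counts on Lhx1-201, against 458 to 600 in the other libraries. On the short Lhx1-202 (effective length 200 to 232 bases) it had 12.3 counts, against 0 to 5.97 elsewhere. These counts are not scaled for depth, and CTRL 3 had the smallest total, 28.2 M against 37.2 M to 46.1 M elsewhere. The authors' table gave a log2 fold change of -0.24 and lengthScaledTPM gave -0.23.

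**Figure D3:**
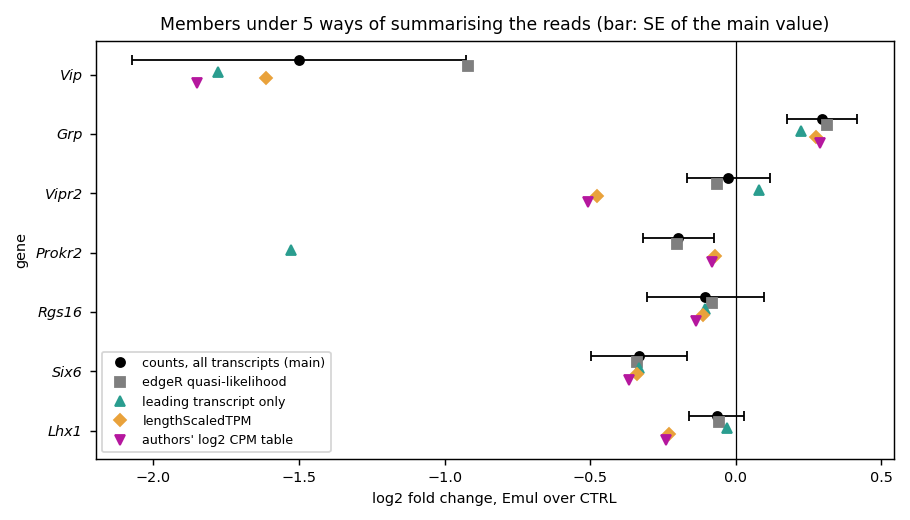
Log2 fold change (Emul over CTRL, horizontal axis) of the 7 members that passed the filter, computed in 5 ways, with the SE of the main limma-voom value as a bar. Vipr2 and Lhx1 lie further left with lengthScaledTPM and in the authors' table, and Vip runs from -1.85 to -0.92. Prokr2 moves left to -1.53 on its leading transcript alone, which had almost no counts in Emul 3.

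Per length, the members were spread as follows. In CTRL the median TPM was 18.3 for Rgs16, 10.5 for Vip, 9.82 for Lhx1, 8.02 for Grp, 5.44 for Vipr2, 4.51 for Prokr2, 4.51 for Six6, 2.64 for Nms and 1.28 for Prok2. The libraries of Rgs16 and Vip, of Vip and Lhx1, of Vipr2 and Prokr2 and of Prokr2 and Six6 overlapped, so those neighbours could not be ordered. In Emul, Vip came seventh with a median TPM of 1.45 (lowest 0.997 in Emul 5), after Rgs16 at 17.7, Grp at 8.99, Lhx1 at 7.99, Prokr2 at 3.61, Vipr2 at 3.52 and Six6 at 2.90. Nms and Prok2 had medians of 1.17 and 0.662 in Emul. The libraries of 7 of the 8 neighbouring pairs overlapped in Emul, all but Lhx1 and Prokr2, so that the place of Vip among its neighbours is that of its median alone. Vip TPM was above that of Grp in CTRL 1, CTRL 3, Emul 1 and Emul 4 and below it in the other libraries, CTRL 2 and CTRL 4 included.

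Across the members, 6 of the 7 tested were lower in Emul and 1 was higher, against 49.2% of all genes lower. The median log2 fold change was -0.10 for the members and 0.00 for all genes. The cutoff was a limma-voom p-value under 0.05, taken here as unadjusted, with a change above 1.5-fold. Past it was 1 member, Vip, against 0.469% of all genes, or 0.222% for genes lower in Emul. At an unadjusted p-value under 0.05 alone there were 2 members, Vip and Grp, against 15.8% of all genes, and in log2 CPM 0 of the 7 separated the groups without overlap, against 6.6% of all genes. As the members were selected on this comparison, nothing is read from these counts.

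The place of Vip past the cutoff depended on single libraries and on the tool. Its log2 fold change was -0.92 by edgeR and -0.95 by DESeq2, where it was not past the cutoff, and leaving out CTRL 1 (-1.31), Emul 2 (-1.25), Emul 3 (-1.21) or Emul 5 (-1.14) also took it below the cutoff. Without Emul 4 the value was -2.02. In bulk tissue, fewer SCN cells in a dissection and less RNA per cell cannot be told apart.

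The pattern was shared by part of the members. Emul 2, 3 and 5 were the lowest 3 libraries for Vip, Nms, Prok2 and Six6, 4 of the 9, and for 2.37% of all genes tested. CTRL 1, CTRL 3 and Emul 4 were the highest 3 libraries for 5 of the 9, Vip, Nms, Prok2, Vipr2 and Prokr2, and for 1.55% of all genes. Lhx1 and Rgs16 showed neither, and Grp showed the mirror of both. Of the 4 peptide genes, 3 thus shared their lowest libraries with Six6, and Grp did not. Both sets of libraries are those of Vip itself, so Vip meets them by construction. Nms and Prok2 are not among the genes tested, and the members were selected with these values known. For these reasons nothing is read from these counts beside the shares of all genes.

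The genes most like Vip were ranked by the root-mean-square (RMS) difference of log2 CPM, each gene centred on its own mean, over the 9 libraries and among the 15340 genes that passed the filter. A gene with no variation would lie 1.37 from Vip. Of the 8 nearest genes that are no members, 7 are named here, Sp8 (0.777), Vax1 (0.786), Meis2 (0.818), Gm3373 (0.819), Gm4881 (0.848), Mab21l2 (0.859) and Ucn3 (0.865). All 8 had Emul 2, 3 and 5 as their lowest libraries, which follows largely from ranking genes by likeness to Vip in these same libraries. Sp8, Vax1 and Meis2 encode transcription factors of the developing forebrain, and Ucn3 encodes the neuropeptide urocortin 3. Vax1 stood at 2.10, 2.00, 2.62 and 1.57 in CTRL 1 to 4 and at 1.91, 1.04, 0.64, 2.22 and 0.79 in Emul 1 to 5 in log2 CPM. Meis2 stood at 3.92, 4.26, 4.35 and 3.08 in CTRL and at 4.26, 2.98, 2.65, 3.86 and 2.39 in Emul. As with Vip, the groups overlapped for both genes, since Emul 1 and Emul 4 lay within the CTRL range. Ranked by Pearson correlation instead, 2 of these 8 genes, Vax1 among them, were in the first 8, which then held Dlx2, Dlx5 and Onecut3.

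Within the members, Prok2 at 0.696 and Nms at 0.739, both below the filter, lay nearest to Vip. Among the members that passed the filter, Six6 was nearest, at 1.08, followed by Rgs16 at 1.19, Prokr2 at 1.22 and Vipr2 at 1.24, while Lhx1 at 1.39 and Grp at 1.57 were farther than a flat gene. The 3 genes nearest to Six6 were the pseudogene Gm5831 (0.099), Asic4 (0.119) and its paralog Six3 (0.123), where a flat gene lay at 0.326. Six3 stood at 5.16, 4.86, 5.49 and 4.88 log2 CPM in CTRL 1 to 4 and at 4.96, 4.58, 4.45, 5.05 and 4.47 in Emul 1 to 5, with Emul 2, 3 and 5 below every CTRL library. The 3 nearest to Rgs16 were 1600029O15Rik (0.150), Frem3 (0.155) and D130007C19Rik (0.160), against 0.356 for a flat gene.

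**Figure D4:**
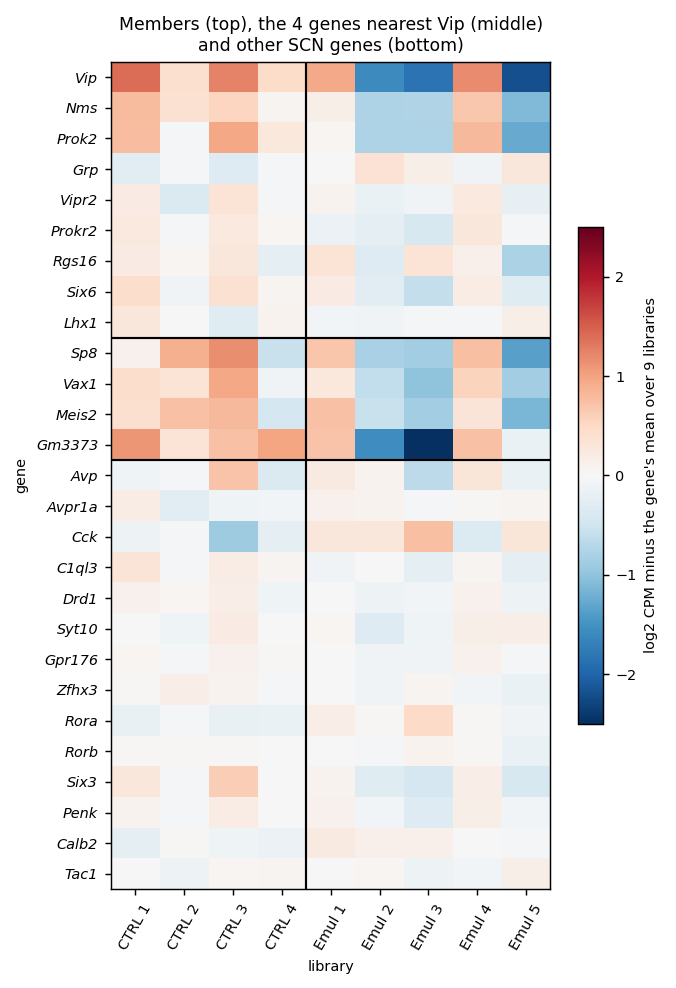
Log2 CPM of each gene minus its mean over the 9 libraries (color scale, -2.5 to 2.5, with the value of Gm3373 in Emul 3 beyond its end), with libraries in columns and the members, the 4 genes nearest to Vip, and the remaining other SCN genes in rows. Emul 2, 3 and 5 are blue for Vip, Nms, Prok2 and the 4 nearest genes, except for a pale Emul 5 in Gm3373. The same libraries are faint blue for Six6 and pale for most other SCN genes.

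Other genes known from the SCN followed the library order of Vip in part. Of 15 such genes, all tested, 4 were higher and 11 lower in Emul, with a median log2 fold change of -0.05. By limma-voom, 6 of them passed an unadjusted p-value under 0.05. Over all genes tested, 49.2% were lower and 15.8% passed that threshold. The gene list, like the members, was chosen with earlier results known, so nothing is read from its counts. Avp, the vasopressin gene of the SCN shell and of the paraventricular and supraoptic nuclei, stood at -0.07 ± 0.21 (SE) in log2 fold change, with an adjusted p of 0.91 by limma-voom. Lower in Emul were Vax1 (-0.69 ± 0.31, SE), Six3 (-0.36 ± 0.15, SE) and C1ql3 (-0.23 ± 0.08, SE), and higher were Cck (0.52 ± 0.21, SE), Rora (0.26 ± 0.09, SE) and Calb2 (0.20 ± 0.06, SE). Their adjusted p-values by limma-voom ran from 0.17 for Calb2 to 0.30 for Vax1. Vax1 was the only one of the 15 past the cutoff, and no longer was without CTRL 1 (-0.66), CTRL 2 (-0.70), CTRL 3 (-0.54), Emul 2 (-0.60), Emul 3 (-0.52) or Emul 5 (-0.56). Gpr176, Six3, Vax1 and Penk, 4 of the 15, had Emul 2, 3 and 5 as their lowest libraries, against 2.37% of all genes tested. Drd1, Gpr176, Six3 and Vax1, also 4 of the 15, had CTRL 1, CTRL 3 and Emul 4 as their highest, against 1.55% of all.

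Clock genes and the partner ligands and receptors moved little. Of 17 clock genes, 11 were higher and 6 lower in Emul, with a median log2 fold change of 0.02. The unadjusted threshold was passed by Ciart (0.25 ± 0.06, SE), a repressor of the clock, and by Per1 (-0.12 ± 0.05, SE) and Bhlhe41 (-0.08 ± 0.03, SE), with adjusted p-values of 0.11, 0.23 and 0.31 by limma-voom. Of 11 partners, 8 were tested, and 0 passed an adjusted p-value under 0.05 by limma-voom, edgeR, DESeq2 or limma-trend. At an unadjusted p-value under 0.05 the partner counts were 0 by limma-voom, 1 by edgeR, 0 by DESeq2 and 1 by limma-trend. The partners with the largest differences were Adcyap1, the gene of the VIP-related peptide PACAP, at 0.23 ± 0.11 (SE), and Prokr1 at 0.19 ± 0.19 (SE). The VIP receptor gene Vipr1 was at -0.15 ± 0.18 (SE) and the GRP receptor gene Grpr at 0.00 ± 0.12 (SE).

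Most markers of the MBH were present in all libraries. The arcuate genes Pomc, at 33.2 to 67.5 TPM, and Agrp, at 33.1 to 57.1 TPM, and the ventromedial gene Nr5a1, at 10.5 to 14.5 TPM, were found in each. Of 8 arcuate markers, Kiss1 was not tested, with 0 counts in 4 libraries. Of 7 arcuate markers tested, 4 were higher and 3 lower in Emul and 0 passed an unadjusted p-value under 0.05 by limma-voom, 1 by edgeR, 0 by DESeq2 and 0 by limma-trend. The largest differences among them were those of Npy (0.28 ± 0.14, SE) and Pomc (-0.23 ± 0.15, SE). Among 5 ventromedial markers, 4 were lower, with Fezf1 at -0.32 ± 0.10 (SE, adjusted p = 0.18 by limma-voom).

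Markers of neighbouring regions also varied between libraries, and the order of the libraries differed between the lists. The 5 thalamic markers were all higher in Emul, with a median log2 fold change of 0.61, 1 of them past an unadjusted p-value under 0.05 by limma-voom (Ntng1, 0.55 ± 0.16, SE), 3 by edgeR, 2 by DESeq2 and 1 by limma-trend. Their summed CPM was 89.4, 127, 89.2 and 103 in CTRL 1 to 4 and 174, 158, 261, 106 and 111 in Emul 1 to 5. Emul 2 and Emul 3, low in Vip, were above every CTRL library here, but so was Emul 1, which was not low in Vip, and Emul 5, the lowest in Vip, was inside the CTRL range. Of 6 paraventricular and supraoptic markers, 5 were lower, 0 at an unadjusted p-value under 0.05 by limma-voom, edgeR, DESeq2 or limma-trend, and their summed CPM ran from 220 to 469 in CTRL and from 162 to 355 in Emul. Oxt, the oxytocin gene, was at -0.29 ± 0.45 (SE). Trh (-0.40 ± 0.26, SE) had Emul 2, 3 and 5 as its lowest libraries, whereas the telencephalic gene Neurod6 (0.45 ± 0.26, SE) had them as its highest.

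The lateral hypothalamic markers Hcrt (-0.70 ± 0.23, SE) and Pmch (-0.32 ± 0.10, SE), the genes of orexin and melanin-concentrating hormone, were both lower in Emul, with adjusted p-values of 0.19 by limma-voom, and Hcrt was past the cutoff, except without Emul 3 (-0.55) or Emul 5 (-0.54). All 6 oligodendrocyte markers were lower, 5 at an unadjusted p-value under 0.05 by limma-voom, against 15.8% of all genes tested. Their median was -0.28, with a summed CPM of 13057 to 16439 in CTRL and 10194 to 13932 in Emul. Among the 5 were the myelin genes Mbp (-0.29), Mobp (-0.30), Mag (-0.31) and Cnp (-0.27), in log2 fold change. Among 5 astrocyte markers, Gfap was at -0.40 ± 0.09 (SE, adjusted p = 0.10 by limma-voom). Telencephalic markers summed to 7.77 to 13.5 CPM in CTRL and 8.26 to 10.2 in Emul, tanycyte and ependymal markers to 71.6 to 87.5 and 72.3 to 86.5, and microglia and endothelial markers to 159 to 180 and 165 to 181. The largest differences in the last 2 lists were those of Tmem212 (0.11 ± 0.13, SE) and Rax (-0.10 ± 0.12, SE), and of P2ry12 (0.10 ± 0.06, SE) and Pecam1 (0.09 ± 0.06, SE). Of 6 pituitary and pars tuberalis markers, 2 were tested (Tshb -0.07 ± 0.10, SE; Cga -0.09 ± 0.25, SE), and Gh and Prl had at most 2 counts in any library. The part of these regions and cell types in the levels of the SCN genes was not tested.

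Over the 14 lists around the members, 0 genes had an adjusted p-value under 0.05 by limma-voom, edgeR or limma-trend, against 0.117% of all genes by limma-voom, and 3 did by DESeq2, namely Calb2, Ciart and Gfap. Of the 92 list genes tested, those at an unadjusted p-value under 0.05 numbered 19 by limma-voom, or 20.7% against 15.8% of all genes, 21 by edgeR, 18 by DESeq2 and 19 by limma-trend.

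**Figure D5:**
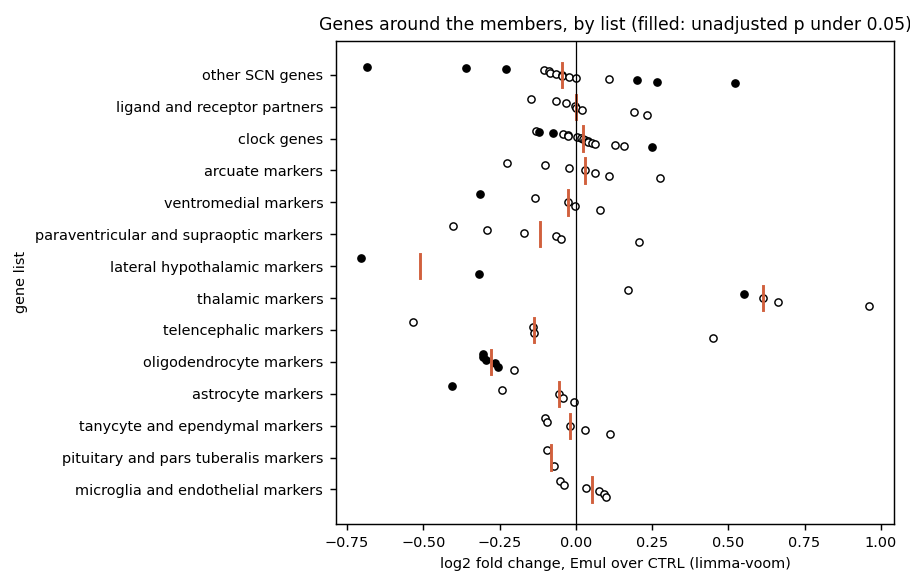
Log2 fold change (Emul over CTRL, limma-voom, horizontal axis) of each tested gene in the 14 lists around the members, with a vertical bar at each list's median and filled points at an unadjusted p-value under 0.05. All 5 thalamic markers lie to the right of 0 and all 6 oligodendrocyte markers to the left, while the medians of clock genes and of partners lie close to 0.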

How the data were processed

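Strand-specific mRNA libraries of MBH tissue were sequenced paired-end, with 1 library per litter. Per the submitters' processing notes and methods, the authors used FastQC 0.11.9, kallisto 0.46.1 on mm10 and edgeR 3.40.1. They deposited, per library, estimated counts and TPM values for 119414 transcripts, and a table of log2 CPM values with 14593 rows, 1 of them without a gene name. The transcriptome release, and how transcripts were summed to genes in that table, are not given in the sources used here. That table held 8 of the 9 members, all but Prok2.

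The members and the lists were chosen with earlier results of these data known. Transcripts were matched to GENCODE M21 (97.8% matched), and estimated counts were summed per gene with R 4.3.3 and Python 3.11.15. The 1.20% to 1.27% of counts without a gene were left out. The 15340 genes whose CPM exceeded 1 in 4 or more libraries were scaled by TMM and compared by limma-voom (limma 3.58.1) without covariates. Genes past the cutoff had p under 0.05, unadjusted, and changed over 1.5-fold. The study's methods give these 2 limits without saying whether p was adjusted, while the legend of its volcano plot names an FDR. P-values were adjusted by Benjamini-Hochberg across every tested gene. Counts were rounded for edgeR 4.0.16 and DESeq2 1.42.0. Within the groups, chi-square per gene between a pair of libraries was at least 7.49, so no library repeated another. Totals of 28.2 M to 46.1 M leave counting error small for most genes, but not for Nms and Prok2. Limma-voom was tested on simulated data for this comparison (15257 genes, 200 changed). At an adjusted p-value under 0.05 it recovered 46 of 67 genes changed 1.5-fold, 67 of 67 changed 2-fold and 66 of 66 changed 3-fold. There were 11 false calls. The simulation gave every gene the same dispersion, changed only genes with higher counts and shifted all Emul libraries alike. These rates therefore do not carry over to genes with few counts or to a change in part of a group, as in Vip.

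All members are named. Of each list, genes past an unadjusted p-value under 0.05 are named, or else the 2 with the largest change, with further genes named for their level or library order chosen after their values were seen. The 8 genes nearest to Vip and the 3 nearest to Six6 and Rgs16, the other tested members with a range above 1 on the log2 scale, are named by RMS difference. Some genes that these rules select are not reported here. Promoter sequences are RefSeq's on GRCm38.p6. No batch is given in the labels, so none was modelled. The alternatives were other tests, scalings, filters and gene summaries, a prior count of 0.5, a replicate block and each library left out. The leading transcript of each member and the CRE without its last base were chosen after seeing the data.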

Additional observations from a re-analysis of the deposited data

Results flagged for a closer look

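One library of a member stood apart within its group by Dixon's test. Lhx1 in Emul 5 was at 3.91 log2 CPM, against 3.67 to 3.71 in the other 4 Emul libraries, and its gap to the nearest of them made up 0.797 of the range of the group. This was 1 of 34 sets of values examined, and chance flags about 1 in 20. Emul 5 also lay within the CTRL range for Lhx1.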

How the results depend on the processing

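With a main count of 72 genes past the cutoff (38 higher, 34 lower), 683 were past it with no filter and 37 with a CPM above 1 in all 9 libraries, where more and fewer genes were tested. Scaling by library size alone gave 29 higher and 39 lower. Leaving out 1 library each gave 48 to 95. The count of members past the cutoff, 1 (Vip), was 0 by edgeR, by DESeq2, with a CPM above 1 in all 9 libraries (where Vip was not tested) and with the replicate block, and 3 with no filter; leaving out 1 library each gave 0 to 1. Genes of the lists around the members with an adjusted p-value under 0.05 numbered 3 by DESeq2, against 0 by limma-voom, and 0 whichever library was left out.

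The replicate block gave a log2 fold change of -0.65 for Vip and 73 genes past the cutoff. Same-numbered libraries did not deviate together (correlations -0.154, 0.002, 0.009 and -0.090), and differently numbered ones ran from -0.178 to 0.157. No pairing by number was thus seen, though so few correlations cannot decide whether there is one. Vip ran from -2.02 to -1.14 with 1 library left out. The sign of Vipr2 changed under 6 alternatives, of Rgs16 under 2 and of Lhx1 under 1, all close to 0. Low counts limit Nms and Prok2.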
